A study of Mus musculus with 12 samples.

Results

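Frem1, Fbln5 and Tenm4 are genes of the extracellular matrix and cell surface that were picked because their levels had differed between 2 melanoma lines grown as tumours in mice. They are 3 of the 909 gene symbols that could be given to the array's probe sets, and 4 of its 1246 probe sets. Each probe set was found by the RefSeq accession in its name: 1 for Frem1, 1 for Fbln5 and 2 for Tenm4. They were chosen by their measured difference between the lines on these same 12 arrays, so those differences are given as a description, with no test. Differences between hosts, and whether the line difference depended on the host, were not what the genes were picked for, and were tested. The genes were picked with earlier results of these data known, so the choice may have favoured genes whose line difference was alike in either host.

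Tumour RNA was measured on 12 Affymetrix arrays of a design rich in genes of glycan synthesis, lectins and cytokines. The 4 groups held 3 arrays each: Tm1N3 tumours in galectin-3 knockout hosts, Tm1G3 tumours in knockout hosts, Tm1N3 tumours in wild-type hosts and Tm1G3 tumours in wild-type hosts. Per the labels, Tm1N3 is a melanoma line that expresses galectin-3, Tm1G3 is one that has silenced it, and the knockout hosts are Gal3 -/- mice. The series text describes a silenced line that received a plasmid coding for galectin-3, but not which of the lines carries it. The hosts are called syngeneic. Mouse age, strain and sex, and the number of clones behind each line, are not stated. The series asks how galectin-3 of the tumour cells and of the host tissue bear on tumour growth. Each array's title carries a number of its own beside the words on injected mice, but the labels do not say that these numbers are animals. A p-value therefore speaks only to the spread among arrays, whose number limits the precision.

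Lgals3, the gene of galectin-3, lay between 9.35 and 10.55 on the log2 scale in Tm1N3 and between 8.98 and 9.80 in Tm1G3 tumours of knockout hosts. In wild-type hosts it lay between 9.72 and 10.39 in Tm1N3 and between 9.33 and 9.99 in Tm1G3 tumours. The groups overlapped, and where the probes lie relative to the deleted or silenced sequence is not known here, so these levels check neither label. Array medians lay between 5.51 and 5.60. Of 11 melanocyte markers, Kit and Mcam were among the named probe sets, and the melanosome genes that define melanocytes (Tyr, Pmel and Mlana among them) were not analysed here.

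Frem1 encodes a secreted protein of the Fraser complex, which sits in the basement membrane and fastens epithelium to the tissue beneath, and mice without it develop blisters before birth. Fbln5 encodes fibulin-5, an adaptor that helps lay tropoelastin and its cross-linking enzymes onto microfibrils, and that binds integrins on cells; mice without it have loose skin and a stiff, tortuous aorta. Tenm4 encodes a teneurin, a large transmembrane protein that binds partners on neighbouring cells and is known mainly from the nervous system, where it takes part in myelination in mice. In melanoma tissue such transcripts can come from the tumour cells or from the fibroblasts and vessels of the host. In bulk RNA fewer cells of a type and less RNA per cell cannot be told apart.

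Frem1 lies on chromosome 4 (82897920 to 83052506), Tenm4 on chromosome 7 (96171244 to 96911093) and Fbln5 on chromosome 12 (101746565 to 101819119) of assembly GRCm38.p6. Which exons or UTRs the probes cover is not known here. The 3 windows below, from RefSeq for GRCm38.p6, run from 250 bases before to 50 bases after a start annotated for each gene, the more 5′ of the 2 in the promoter table. For Tenm4 and Fbln5 that start is the end of the gene's span given above, while for Frem1 it lies inside the span, downstream of its 5′ end. They are shown so that the start regions of the genes that were low (Frem1, Tenm4) and high (Fbln5) in Tm1N3 tumours can be read side by side. The Frem1 window is chr4:83052117-83052416 on the minus strand, that of Tenm4 chr7:96170994-96171293 on the plus strand and that of Fbln5 chr12:101819070-101819369 on the minus strand. Capitals mark matches, on either strand, to the CAAT box (CCAAT) and the GC box (GGGCGG).
Frem1: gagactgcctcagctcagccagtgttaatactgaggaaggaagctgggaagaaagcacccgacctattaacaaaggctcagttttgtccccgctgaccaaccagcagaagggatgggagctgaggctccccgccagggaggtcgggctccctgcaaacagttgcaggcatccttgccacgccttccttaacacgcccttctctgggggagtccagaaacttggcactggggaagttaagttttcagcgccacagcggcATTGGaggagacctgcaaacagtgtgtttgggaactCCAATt
Tenm4: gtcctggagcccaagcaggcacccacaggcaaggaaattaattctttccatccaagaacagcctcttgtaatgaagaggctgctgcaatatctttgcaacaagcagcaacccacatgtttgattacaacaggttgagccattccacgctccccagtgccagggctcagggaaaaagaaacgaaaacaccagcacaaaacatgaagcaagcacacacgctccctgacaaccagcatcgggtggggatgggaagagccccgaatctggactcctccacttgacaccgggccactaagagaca
Fbln5: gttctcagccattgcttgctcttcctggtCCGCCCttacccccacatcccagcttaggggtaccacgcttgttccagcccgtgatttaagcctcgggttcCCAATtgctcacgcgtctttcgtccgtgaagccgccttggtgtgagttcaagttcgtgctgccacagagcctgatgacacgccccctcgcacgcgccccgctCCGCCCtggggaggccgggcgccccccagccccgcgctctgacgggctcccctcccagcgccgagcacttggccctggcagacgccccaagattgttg

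Each gene has a further start in the table, and which start these tumours used was not measured. The Fbln5 window had 65.7% G and C bases, that of Frem1 55.7% and that of Tenm4 52.0%, beside a median of 52.7% over 32851 windows of the same length. The Fbln5 window held 1 match to the CAAT box and 2 to the GC box. The Frem1 window held 2 matches to the CAAT box, both downstream of the start used for this window. The Tenm4 window held neither. Of all windows, 37.4% held a CAAT box match and 35.7% a GC box match, so these matches are common. Matches to the TATA box (TATAAA), the M-box (TCATGTG), the E-box (CACGTG) and the AP-1 site (TGANTCA) were also searched on both strands; these letters were in none of the windows shown and in 13.6%, 3.77%, 7.15% and 7.81% of all windows. No motif searched overlaps another in the windows shown.

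Frem1 was the steadiest of the genes. In knockout hosts its log2 levels were 3.73, 3.83 and 3.75 in Tm1N3 tumours and 4.72, 4.51 and 4.75 in Tm1G3 tumours. In wild-type hosts they were 3.70, 3.90 and 3.95 in Tm1N3 tumours and 4.72, 4.61 and 4.72 in Tm1G3 tumours. Every Tm1N3 array thus lay below every Tm1G3 array, with a gap of 0.56 on the log2 scale between the nearest pair. Lines lay apart in this way for 3 of the 4 probe sets of the chosen genes and for 3.29% of all probe sets, and since line differences chose the genes nothing is read from this share.

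As a difference, Tm1N3 minus Tm1G3, Frem1 stood at -0.89 ± 0.08 (SE) in knockout and -0.83 ± 0.08 (SE) in wild-type hosts, or 1.85-fold and 1.78-fold lower in Tm1N3 tumours. Averaged over hosts it was -0.86 (95% interval -0.99 to -0.73), the 7th lowest of 1246 probe sets. Here and for the genes below, interval and rank take no account of the choice by this difference. Of the sum of squares of Frem1 over the 12 arrays 96.0% lay between lines, 0.349% between hosts and 3.54% within groups. The SD within groups was 0.10, at the 34.9 percentile of all probe sets. Its mean level in Tm1N3 tumours, 3.77 ± 0.05 in knockout and 3.85 ± 0.13 in wild-type hosts (SD, n = 3 each), lay under 4.22, the level that bounds the dimmest 25% of probe sets. Whether Frem1 was above background there was not measured, since the table holds no background signal.

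Fbln5 was on the opposite side. Its log2 levels in knockout hosts were 5.68, 5.89 and 5.23 in Tm1N3 tumours and 4.60, 4.95 and 4.85 in Tm1G3 tumours. In wild-type hosts they were 5.55, 5.94 and 5.61 in Tm1N3 tumours and 5.00, 5.00 and 4.93 in Tm1G3 tumours. All 6 Tm1N3 arrays lay above all 6 Tm1G3 arrays, by 0.23 between the nearest pair, and that nearest Tm1N3 array was replicate 3 of the knockout hosts.

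The Fbln5 difference, Tm1N3 minus Tm1G3, was 0.80 ± 0.16 (SE) in knockout hosts and 0.72 ± 0.16 (SE) in wild-type hosts, 1.74-fold and 1.65-fold higher in Tm1N3 tumours. The average over hosts, 0.76 (95% interval 0.51 to 1.02), was the 4th highest of all probe sets. Lines held 79.8% of the sum of squares of Fbln5, hosts 2.56% and the spread within groups 17.4%. Fbln5 varied more than most probe sets, with a within-group SD of 0.22 at the 81.3 percentile, and its SD was 0.34 in Tm1N3 tumours of knockout hosts against 0.04 in Tm1G3 tumours of wild-type hosts (n = 3 each).

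Tenm4 was measured by a probe set whose suffix marks probes shared between transcripts, here called the shared-probe set, and by one without that suffix, the unique-probe set. The shared-probe set read 4.65, 4.83 and 4.62 in Tm1N3 and 5.35, 5.15 and 5.18 in Tm1G3 tumours of knockout hosts. In wild-type hosts it read 4.97, 4.48 and 4.64 in Tm1N3 and 5.03, 5.36 and 5.10 in Tm1G3 tumours. The lines lay apart, but by only 0.06 between the nearest arrays.

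The unique-probe set of Tenm4 read 4.32, 4.20 and 4.18 in Tm1N3 and 4.93, 4.58 and 4.54 in Tm1G3 tumours of knockout hosts. In wild-type hosts its levels were 4.69, 4.23 and 4.10 in Tm1N3 and 4.51, 4.89 and 4.74 in Tm1G3 tumours. Here the lines overlapped through a single Tm1N3 array, replicate 1 of the wild-type hosts, which was the highest Tm1N3 array on both Tenm4 probe sets. The Tm1N3 levels of 4.20, 4.18 and 4.10 lay under 4.22, the level that bounds the dimmest 25% of probe sets. Whether the unique-probe set was above background there was not measured.

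The averaged line difference, Tm1N3 minus Tm1G3, was -0.50 (95% interval -0.70 to -0.29) on the shared-probe set and -0.41 (95% interval -0.67 to -0.16) on the unique-probe set. By host, the shared-probe set differed by -0.52 ± 0.13 (SE) in knockout and -0.47 ± 0.13 (SE) in wild-type hosts, and the unique-probe set by -0.45 ± 0.16 (SE) and -0.37 ± 0.16 (SE). With an array left out, the wild-type difference ran from -0.61 (without replicate 1 of the Tm1N3 tumours) to -0.36 (without replicate 2 of them) on the shared-probe set. On the unique-probe set it ran from -0.55 (without replicate 1 of the Tm1N3 tumours) to -0.25 (without replicate 3 of them). Lines held 75.6% of the sum of squares of the shared-probe set and 56.3% of that of the unique-probe set, with 23.9% and 41.6% within groups.

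**Figure D1:**
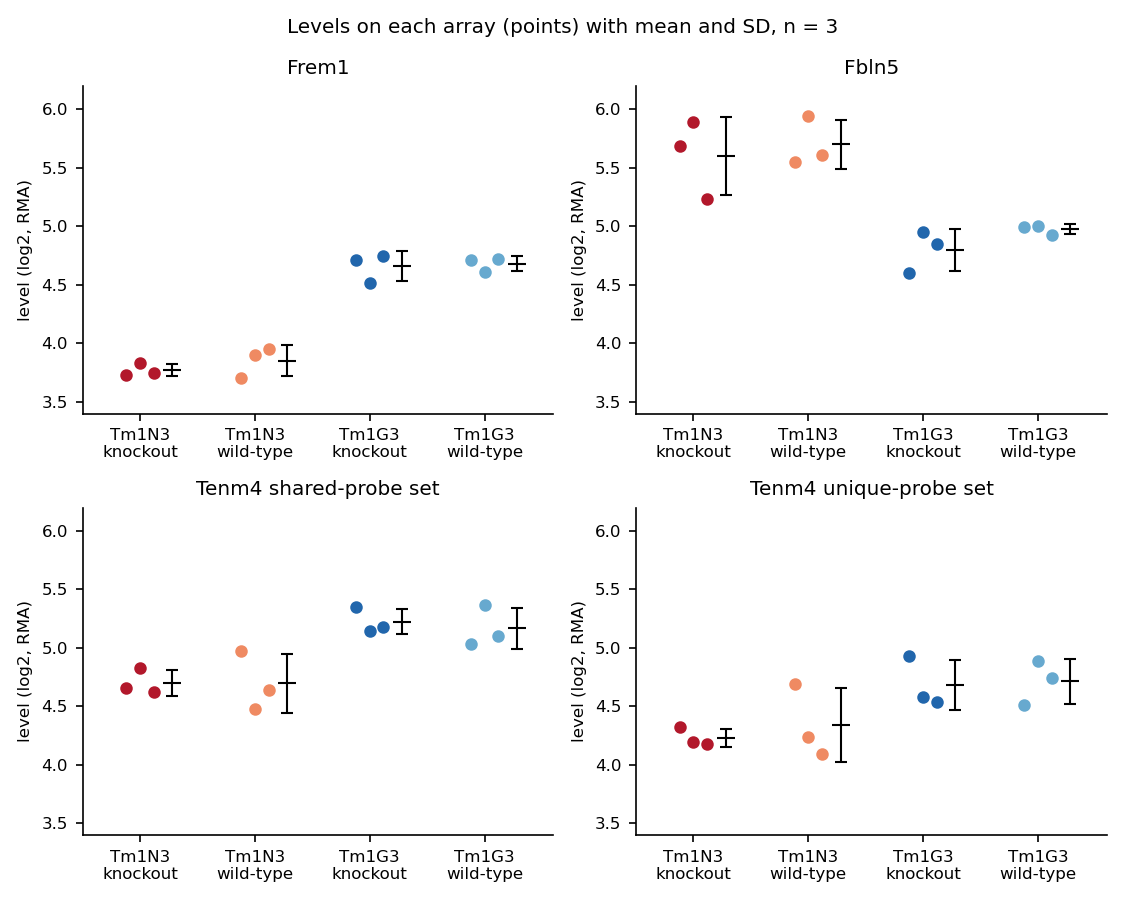
Log2 levels (RMA) of Frem1, Fbln5 and the 2 Tenm4 probe sets on each of 12 arrays (points), with the mean and SD of each group of 3 beside them. Frem1 and Tenm4 sat lower and Fbln5 higher in Tm1N3 than in Tm1G3 tumours of either host, and the Tenm4 unique-probe set of 1 Tm1N3 array of a wild-type host, at 4.69, reached into the Tm1G3 range.

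By group mean, Frem1 was lowest in Tm1N3 tumours of knockout hosts (3.77) and then of wild-type hosts (3.85), followed by Tm1G3 tumours of knockout hosts (4.66) and of wild-type hosts (4.68). The order of Fbln5 was Tm1G3 tumours of knockout (4.80) and wild-type hosts (4.98), then Tm1N3 tumours of knockout (5.60) and wild-type hosts (5.70). For each probe set the neighbours in the order that share a line differed by less than 0.18 and overlapped in their arrays, and the step in the order was the one between lines.

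Host galectin-3 made no difference that could be told from the spread in any of these genes. Knockout minus wild-type, averaged over lines, Frem1 differed by -0.05 (95% interval -0.18 to 0.08), Fbln5 by -0.14 (-0.39 to 0.12), the Tenm4 shared-probe set by 0.03 (-0.17 to 0.24) and the unique-probe set by -0.07 (-0.32 to 0.18). None passed in limma (Benjamini-Hochberg adjusted p = 0.856, 0.800, 0.946 and 0.910 over all probe sets) or in a two-sided exact permutation of hosts within lines (p = 0.37, 0.28, 0.72 and 0.59, with 0.005 the smallest it can give). Over all 1246 probe sets limma called 0% for this difference, with 78 at an unadjusted p under 0.05.

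Within a line the host differences were as small. In Tm1N3 tumours Frem1 differed by -0.08 ± 0.08 (SE), Fbln5 by -0.10 ± 0.16, the Tenm4 shared-probe set by 0.0048 ± 0.13 and its unique-probe set by -0.11 ± 0.16. In Tm1G3 tumours Frem1 differed by -0.02 ± 0.08 (SE), Fbln5 by -0.18 ± 0.16, the Tenm4 shared-probe set by 0.06 ± 0.13 and its unique-probe set by -0.03 ± 0.16. The largest of these, Fbln5 in Tm1G3 tumours, had means of 4.80 ± 0.18 in knockout and 4.98 ± 0.04 in wild-type hosts (SD, n = 3 each; two-sided exact permutation p = 0.2, without pairing). Between same-numbered arrays, which deviated together within a line, Fbln5 in Tm1G3 tumours differed by -0.40, -0.05 and -0.08, below 0 in 3 of 3 pairs, and with the replicate block it did not pass (limma adjusted p = 0.638). For every other probe set and line the 3 pairs held both signs. With 3 against 3 arrays such a test cannot go below 0.1, and after adjustment over the 12 permutation tests every p was 1.

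Knockout and wild-type arrays lay apart on 0 of the 4 probe sets in either line, beside 7.62% of all probe sets in Tm1N3 and 12.4% in Tm1G3 tumours. In limma 0% of all probe sets passed for the host difference in either line, with 54 in Tm1N3 and 77 in Tm1G3 tumours at an unadjusted p under 0.05.

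The line difference did not detectably depend on the host. The interaction, the line difference in knockout minus that in wild-type hosts, was -0.06 (95% interval -0.33 to 0.21) for Frem1 and 0.08 (-0.43 to 0.59) for Fbln5. It was -0.05 (-0.46 to 0.36) for the Tenm4 shared-probe set and -0.08 (-0.58 to 0.43) for the unique-probe set (limma, Benjamini-Hochberg adjusted p = 0.996 for each). For Frem1 the interval reached -0.33, beside an averaged line difference of -0.86 that chose the gene. The choice may have favoured genes alike in either host, so this interval is no firm bound on the interaction. For the Tenm4 probe sets and Fbln5 each interval spans more than the size of the averaged line difference itself. A dependence on host as large as much of that difference could thus have been missed with these arrays. Limma called 0% of all probe sets for the interaction, with 35 at an unadjusted p under 0.05.

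**Figure D2:**
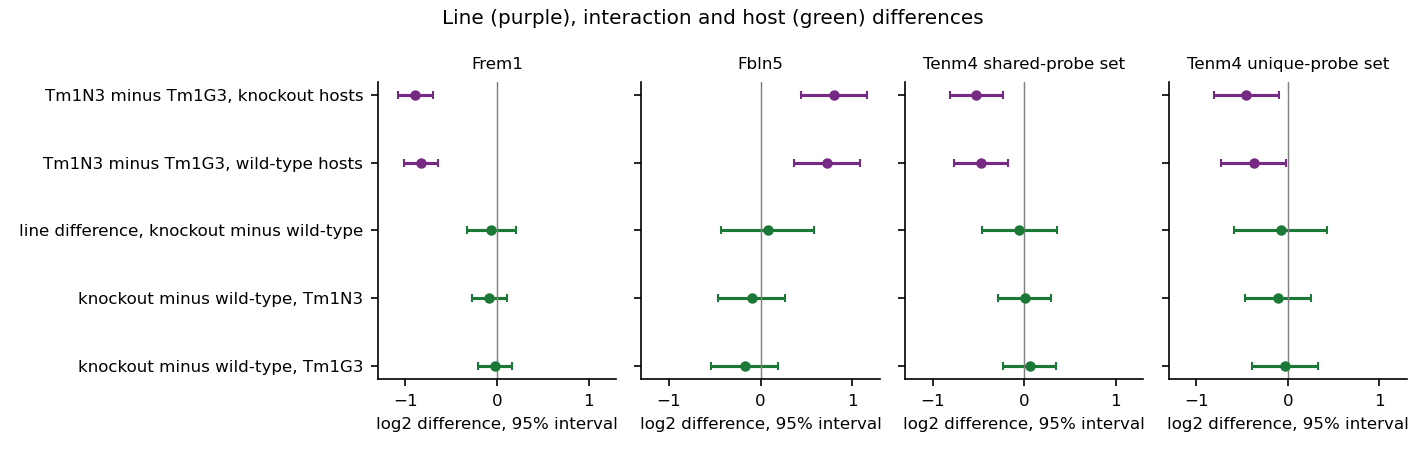
Log2 differences with 95% intervals for each probe set: Tm1N3 minus Tm1G3 in either host (purple), and the interaction and the knockout minus wild-type difference in each line (green). The green intervals all include 0, while the line differences, which chose the genes, run from -0.89 for Frem1 to 0.80 for Fbln5. The purple intervals take no account of that choice.

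Within a line no relation between the genes passed its test. Over the 6 Tm1N3 arrays Frem1 correlated with Fbln5 at Pearson r = 0.46 (Spearman rho = 0.43) and over the 6 Tm1G3 arrays at r = -0.38 (rho = -0.66), with exact permutation p = 0.383 and 0.439 for r and 0.419 and 0.175 for rho. Frem1 and the Tenm4 unique-probe set had r = -0.69 and rho = -0.77 in Tm1N3 tumours (exact permutation p = 0.0931 and 0.103) and r = -0.01 and rho = -0.09 in Tm1G3 tumours (exact p = 0.978 and 0.919). Of 12 such relations, 6 pairs in each line, none passed adjustment (smallest Benjamini-Hochberg adjusted exact p = 0.511 for r and 0.7 for rho). The genes were chosen for lying apart by line, so no correlation over all 12 arrays was tested.

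The 2 Tenm4 probe sets were both given to Tenm4 by name, and whether the shared probes also read other genes is not known here. Their levels had r = 0.70 (rho = 0.49) in Tm1N3 and r = 0.84 (rho = 0.71) in Tm1G3 tumours (exact permutation p = 0.128 and 0.0528 for r, 0.356 and 0.136 for rho). Without the 2 arrays farthest from the median of the unique-probe set, r was -0.15 in Tm1N3 and 0.05 in Tm1G3 tumours. Leaving out the outermost arrays also narrows the range of levels, which can itself lower r. Whether either relation rests on those arrays can therefore not be told.

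**Figure D3:**
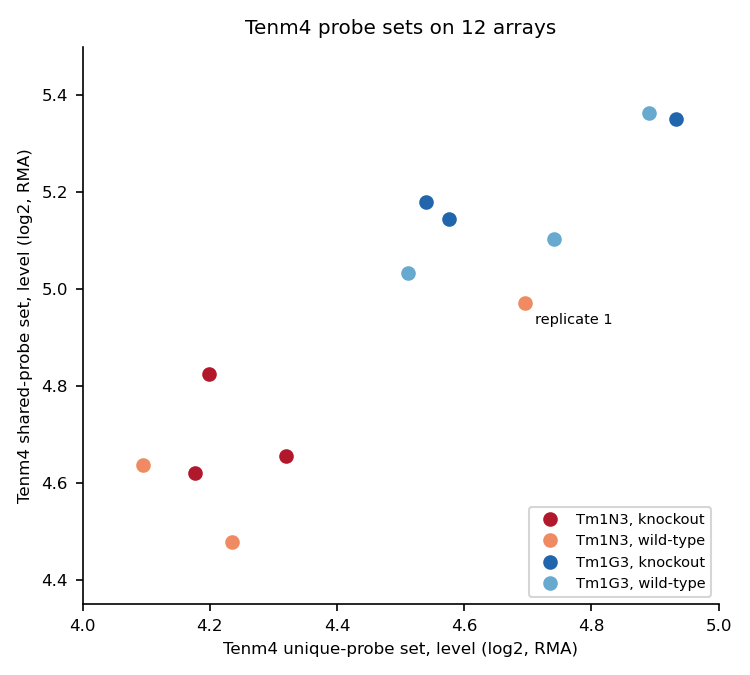
Log2 levels (RMA) of the Tenm4 unique-probe set (horizontal) and shared-probe set (vertical) on each of 12 arrays, coloured by line and host. The Tm1G3 arrays lie at the upper right, and replicate 1 of the Tm1N3 tumours in wild-type hosts, at 4.69 and 4.97, lies within their range on the horizontal axis and below them on the vertical axis.

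The probe sets whose levels over the 12 arrays were most like those of Frem1 were Il18 (Pearson r = 0.96), which encodes an inflammatory cytokine, Il17rd (0.94), a receptor-like inhibitor of growth factor signalling, Ifngr2 (0.92), an interferon gamma receptor chain, and Havcr2 (0.91), the TIM-3 receptor. These r are descriptions with no test, and all of these genes differ between lines in the same direction as Frem1, which enters every such r. Among the 6 Tm1N3 arrays alone r with Frem1 was -0.09 for Il18, 0.79 for Il17rd, 0.56 for Ifngr2 and 0.43 for Havcr2, and among the 6 Tm1G3 arrays it was 0.18, -0.07, -0.11 and 0.13.

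Most like Fbln5 were Galc (r = 0.91), a lysosomal galactosylceramidase, Il3ra (0.87), an interleukin-3 receptor chain, Hs3st1 (0.87), a heparan sulfate sulfotransferase, and Fut11 (0.84), a fucosyltransferase. Among Tm1N3 arrays r with Fbln5 was 0.79 for Galc, 0.32 for Il3ra, 0.43 for Hs3st1 and 0.78 for Fut11, and among Tm1G3 arrays -0.07, 0.17, -0.20 and -0.30. Most like the Tenm4 shared-probe set were Mgat3 (r = 0.91), an enzyme that adds a sugar to N-glycans, Il17rc (0.89), an interleukin-17 receptor chain, Fgf1 (0.89), a growth factor, and Ccl5 (0.88), a chemokine. Their r with Tenm4 was 0.57, 0.88, 0.52 and 0.76 among Tm1N3 arrays and 0.56, 0.18, 0.64 and 0.33 among Tm1G3 arrays.

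Few partners of the 3 proteins were among the named probe sets, those given a gene symbol. A further 262 probe sets had names of another kind and 21 an unmatched accession, so the genes they measure were not read. Of 39 genes of the Fraser complex and basement membrane 3 others were among the named probe sets: Agrn, Col18a1 and Dag1. Agrn and Col18a1 encode the basement membrane proteoglycans agrin and collagen XVIII, and Dag1 encodes dystroglycan, a receptor for agrin. None passed between lines (limma; 0 of 3, beside 4.25% of all probe sets). Agrn differed by 0.20 ± 0.10 (SE), Col18a1 by 0.08 ± 0.15 and Dag1 by -0.12 ± 0.10, Tm1N3 minus Tm1G3 averaged over hosts. No other gene of the 31 of elastic fibres was among the named probe sets, and of 16 teneurin genes and partners only Dag1 was, besides Tenm4.

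Of 26 other matrix glycoproteins, proteoglycans and hyaluronan genes, 1 rose and 2 fell in Tm1N3 tumours in the averaged line difference, and 23 did not pass, beside 4.25% of all probe sets that passed (1.28% higher, 2.97% lower). With a random replicate block at the estimated correlation 2 passed, and the gene that rose, Has3, did not (limma adjusted p = 0.0710 with an estimated correlation). Sdc2, a heparan sulfate proteoglycan of the cell surface, fell, at 8.36 ± 0.17 in Tm1N3 and 8.88 ± 0.16 in Tm1G3 tumours (SD, n = 6 each; difference -0.52 ± 0.09, SE; limma, Benjamini-Hochberg adjusted p = 0.00920). Gpc6, a glypican, fell, at 6.81 ± 0.21 in Tm1N3 and 7.22 ± 0.10 in Tm1G3 tumours (limma adjusted p = 0.0235). Has3, a hyaluronan synthase, rose, at 4.53 ± 0.13 in Tm1N3 and 4.31 ± 0.08 in Tm1G3 tumours (limma adjusted p = 0.0300), but it passed in only 2 of 12 fits with an array left out. The small leucine-rich proteoglycan gene Dcn stood at -0.51 ± 0.47 (SE) and Srgn at -0.51 ± 0.50, differences as large as that of Sdc2 that did not pass.

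Of 7 genes of TGF-beta ligands, receptors and their processing, 1 rose and 6 did not pass, beside 4.25% of all probe sets that passed in the averaged line difference. TGF-beta is known to induce Fbln5 in fibroblasts. Tgfbr1, its signalling receptor, rose, at 9.21 ± 0.22 in Tm1N3 and 8.75 ± 0.16 in Tm1G3 tumours (SD, n = 6 each; limma adjusted p = 0.0235). The other 6 had negative differences, with Tgfb1 at -0.0037 ± 0.13 (SE), Tgfb2 at -0.12 ± 0.05, Tgfb3 at -0.17 ± 0.09 and Tgfbr3 at -0.48 ± 0.20. The median over these 7 genes was -0.12, that over the 26 matrix genes -0.02 and that over all probe sets 0.0027.

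In all, 4 of 36 genes on these lists passed in the averaged line difference, 2 higher and 2 lower, beside 4.25% of all probe sets (1.28% higher, 2.97% lower). With same-numbered arrays of a line as a random replicate block, an alternative chosen after seeing the data, 3 passed. Sdc2 passed in 12 of 12 fits with an array left out, Tgfbr1 in 7 and Gpc6 in 6, and the count over the 36 genes was 1 without replicate 2 of the Tm1G3 tumours in knockout hosts or replicate 3 of those in wild-type hosts. It was 2 without replicate 1 or 3 of the Tm1G3 tumours in knockout hosts, replicate 2 of the Tm1N3 tumours in knockout hosts or any of the Tm1N3 tumours in wild-type hosts. In the single hosts none of the 36 passed, beside 0.722% of all probe sets in knockout and 0.883% in wild-type hosts. Between hosts, and for the interaction, 0 of 36 passed.

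**Figure D4:**
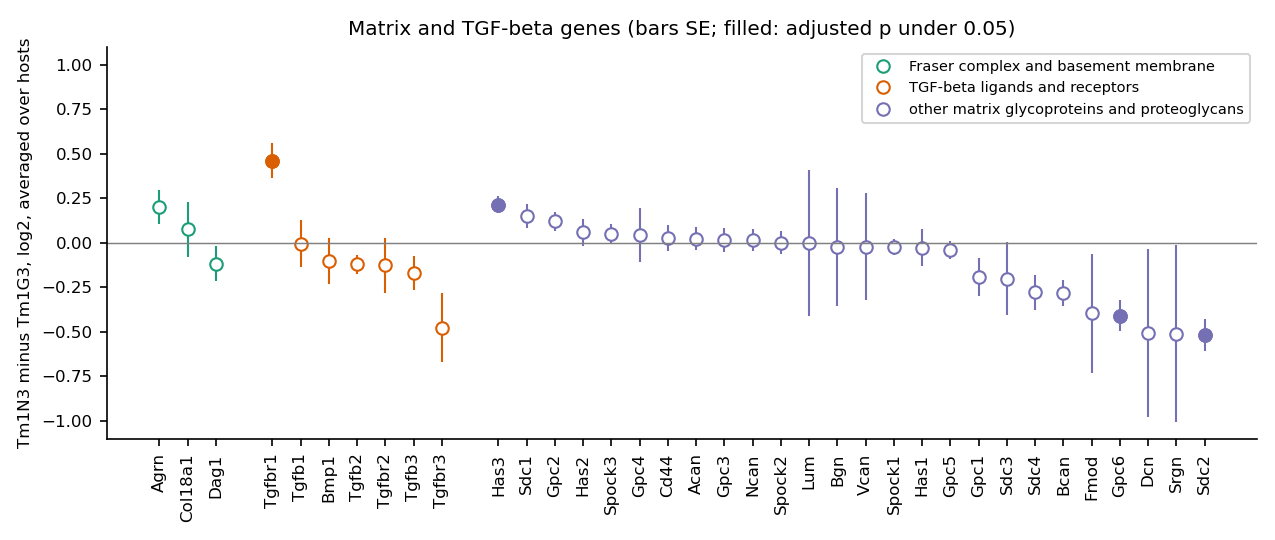
Differences between lines (Tm1N3 minus Tm1G3, log2, averaged over hosts; bars SE) of the 36 genes of the matrix and TGF-beta lists other than the 3 chosen genes. Filled points passed an adjusted p of 0.05 in limma: Tgfbr1 and Has3 above 0, Gpc6 and Sdc2 below.

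Markers of other cell types that the tumours could hold were read beside the 3 genes. Of 11 fibroblast markers 4 were among the named probe sets (Pdgfra, Pdgfrb, Dcn and Lum). In the averaged line difference 0 of 4 passed, beside 4.25% of all probe sets, with a median of -0.0023. Their mean log2 level ran from 6.25 to 8.19 in Tm1N3 and from 6.82 to 7.64 in Tm1G3 tumours of knockout hosts, and from 6.88 to 7.97 in Tm1N3 and from 6.92 to 7.58 in Tm1G3 tumours of wild-type hosts. These ranges overlapped between lines in either host.

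Of 11 endothelial markers 4 were among the named probe sets. In the averaged line difference 1 of 4 passed, beside 4.25% of all probe sets. Icam2 fell (-0.40 ± 0.08, SE; limma adjusted p = 0.0215) and Pecam1 (-0.13 ± 0.18), Emcn (0.23 ± 0.20) and Cd34 (0.17 ± 0.21) did not pass. Their mean level ran from 8.25 to 9.11 in Tm1N3 and from 8.74 to 9.27 in Tm1G3 tumours of knockout hosts, and from 8.63 to 9.06 in Tm1N3 and from 8.47 to 8.88 in Tm1G3 tumours of wild-type hosts. Of 8 macrophage markers 3 were among the named probe sets (Adgre1, Csf1r and Mrc1). All 3 had negative differences, with a median of -0.37, and none passed, beside 4.25% of all probe sets. Their mean level ran from 6.32 to 8.22 in Tm1N3 and from 7.26 to 7.67 in Tm1G3 tumours of knockout hosts, and from 6.78 to 7.95 in Tm1N3 and from 7.05 to 8.37 in Tm1G3 tumours of wild-type hosts.

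Of the melanocyte markers Kit fell (-0.99 ± 0.15, SE; limma adjusted p = 0.00379) and Mcam rose (0.66 ± 0.15; limma adjusted p = 0.0336) in Tm1N3 tumours averaged over hosts. Thus 2 of 2 passed, in opposite directions, beside 4.25% of all probe sets. The list was made with earlier results of these data known, so nothing is read from this share. By host, 1 of the 2 passed, as lower, in knockout hosts and 0 in wild-type hosts, beside 0.722% and 0.883% of all probe sets. The interaction was -1.12 ± 0.30 (SE) for Kit and -0.17 ± 0.30 for Mcam, and neither passed (limma adjusted p = 0.996 for each). Of 6 smooth muscle and pericyte markers 1 was among the named probe sets, Cspg4 (0.09 ± 0.10), and it did not pass. Whether its signal came from pericytes or from the melanoma cells was not measured. Which cells gave the Kit and Mcam signals was likewise not measured. The T and NK cell marker Klrk1 (0.08 ± 0.06) and the neutrophil markers Csf3r (-0.20 ± 0.24) and Cxcr2 (-0.04 ± 0.20) did not pass. Of 6 keratinocyte and epithelial markers 0 were among the named probe sets. The part of these cell types in the levels of Frem1, Fbln5 and Tenm4 was not tested.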

How the data were processed

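Per the labels' protocols, Trizol-extracted RNA was turned into biotinylated cRNA for Affymetrix arrays. The table as deposited holds log2 levels from 2.14 to 13.9, made by the authors with RMA, per the submitters' processing notes. No version, array design or build is named. The levels were used unchanged. RMA as usually run makes the arrays' distributions alike, so a shift of most genes would not show, and it compresses differences at low levels.

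A RefSeq gene table of GRCm38.p6 gave symbols to probe sets through the accession, without its version, that each name carries (963 of 1246 matched 1 symbol each). The members and all gene lists were chosen with earlier results of these data known. Gene lists were counted on the brightest probe set per gene. The genes named are the members, Lgals3, the listed genes past the threshold in the averaged line difference or else the 3 with the smallest p, and the 4 nearest patterns per member. Further listed genes and cell type markers were named after their values were seen.

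All 12 arrays entered 1 limma fit (version 3.58.1, lmFit and eBayes, R 4.3.3) with a mean for each of 4 groups (8 residual and 2.39 prior degrees of freedom), with Benjamini-Hochberg adjustment over 1246 probe sets at 0.05. Levels carry SDs and differences the moderated SE of the fit. Exact permutation tests were run in Python 3.11.15. The fit was tested on simulated data.

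Same-numbered arrays deviated together between the 2 hosts of a line (correlations across probe sets from 0.184 to 0.752 for Tm1N3 and 0.249 to 0.308 for Tm1G3) and were taken to pair the arrays there; what the number marks is not stated. Between lines of a host not every pair passed 0.1, with correlations from -0.660 to 0.273 in knockout and from 0.00808 to 0.544 in wild-type hosts, so they were not taken as pairs. The same-numbered array was the best match for 4 arrays between hosts within Tm1N3 and for 6 within Tm1G3. Between lines it was so for 1 array in knockout and 4 in wild-type hosts. Whether the arrays of wild-type hosts pair between lines is thus not settled. Alternatives were other normalization, a filter on the dimmest 25%, an intensity trend, fits of 2 groups, array weights, replicate blocks and leaving out each array.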

Additional observations from a re-analysis of the deposited data

How the results depend on the processing

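All 4 probe sets passed the filter on the dimmest 25%, which uses the mean over all arrays; Frem1, at 4.24 against a bound of 4.22, passed only through Tm1G3 tumours (4.67), with 3.81 in Tm1N3 tumours. The line differences chose the genes, and many alternatives cannot move them, so their signs are no support. Among 236 alternative fits 1 moved a line difference by more than the within-group SD (Frem1 in knockout hosts, -0.79 with array weights; the cause was not tested). None of 312 alternative fits of the genes' 16 host and interaction differences had an adjusted p under 0.05 (lowest limma adjusted p 0.432), the fits with the replicate block among them, so the block changed no call for these genes.

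The sign turned in 32 of those 312 fits of values near 0, and the cause was not tested. With array weights, the host difference of Fbln5 became 0.0015 averaged and 0.085 in Tm1N3 tumours, that of the Tenm4 shared-probe set -0.0076 averaged and -0.048 in Tm1G3 tumours, and the interaction became 0.045 for Frem1, 0.0084 for the Tenm4 unique-probe set and 0.081 for the shared-probe set. Quantile normalizing again gave host differences in Tm1G3 tumours of 0.0097 for Frem1 and 0.014 for the Tenm4 unique-probe set. With 1 array left out, host differences ranged as follows: Fbln5 in Tm1N3 tumours from -0.24 to 0.086, Frem1 in Tm1G3 tumours from -0.067 to 0.052, the Tenm4 unique-probe set from -0.13 to 0.018 averaged, -0.23 to 0.067 in Tm1N3 and -0.16 to 0.057 in Tm1G3 tumours, and the shared-probe set from -0.023 to 0.10 averaged, -0.10 to 0.14 in Tm1N3 and -0.0084 to 0.16 in Tm1G3 tumours. Interactions ranged from -0.067 to 0.26 for Fbln5, -0.20 to 0.098 for the unique-probe set and -0.16 to 0.084 for the shared-probe set. Centring arrays on their medians turned the within-line r of Fbln5 in Tm1N3 tumours with Tenm4 to 0.081 (unique-probe set) and 0.038 (shared-probe set).

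The count of probe sets called, 53 in the averaged line difference, was 131 with array weights and 23 with the replicate block of number within host, and ran from 32 to 63 with 1 array left out; the 32 came without replicate 2 of the Tm1G3 tumours in knockout hosts. In knockout hosts 9 became 55 with array weights and 4 in a fit of the 2 groups only, and ran from 5 (without replicate 1 or 2 of the Tm1G3 tumours there) to 13. In wild-type hosts 11 became 48 with array weights, 6 with arrays centred on their medians, 3 in a fit of the 2 groups and 4 with the replicate block, and ran from 2 (without replicate 3 of the Tm1G3 tumours in wild-type hosts) to 21 (without replicate 3 of the Tm1N3 tumours in knockout hosts). Of the 4 matrix and TGF-beta genes called, only Sdc2 passed with the fixed replicate block (limma adjusted p = 0.0441, against 0.0765 for Gpc6, 0.0765 for Tgfbr1 and 0.171 for Has3). The calls of Gpc6, Tgfbr1 and Has3 thus depended on leaving that block out. Same numbers were not taken to pair the lines, which is not settled for wild-type hosts. Whether the effects are weaker cannot be told from this. In single hosts, where none of the 36 listed genes passed, up to 3 did in knockout hosts (array weights) and up to 1 in wild-type hosts (array weights, or quantile normalizing again).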
